A study of Mus musculus with 6 samples.

Results

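The transporter families Slc2, Slc5, Slc13, Slc16 and Slc26, which carry sugars, inositol, monocarboxylates, dicarboxylates and sulfate across cell membranes, were described in renal cortex after unilateral ischemia-reperfusion injury (UIRI) with or without bruceine A (BA, written Brucine A in the labels). Their members were the rows of the deposited table whose gene symbol begins with 1 of these family names followed by the letter a and a number, apart from 1 gene that fits this pattern and was left out beforehand, and 51 of the 19176 rows were taken in this way. The rule used gene names and no measured value, but it was set with earlier results of these data known. Of the 51 members, 49 were transporter genes, and the other 2 were Slc2a4rg-ps, a pseudogene, and Slc13a2os, a transcript antisense to Slc13a2.

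All mice were wild-type C57BL/6J males, aged 8 weeks by the methods of the study, whose left renal pedicle was clamped and whose right kidney was removed shortly before collection. The UIRI group received vehicle and the UIRI + BA group received BA at 1 mg/kg into the peritoneum each day. Renal cortex was collected on day 14, and each group had 3 libraries, described as independent biological replicates. There was no library of uninjured kidney, so the values compare only injured cortex with and without BA.

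In the proximal tubule, several sodium-coupled carriers of the Slc5 and Slc13 families take up filtered glucose, inositol, lactate, citrate and sulfate from the urine side. They use the sodium gradient kept by the sodium pump. Some Slc2 carriers and Slc26 exchangers, such as Slc2a2 and Slc26a1, let reclaimed solutes leave on the blood side. Other members lie elsewhere, with Slc13a3 on the blood side and Slc26a6 on the urine side. Slc16 carriers move lactate, amino acids and related compounds without sodium. Glucose reabsorption by Slc5a2, the target of the gliflozin drugs, and Slc5a1 is the best known of these functions.

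Sequencing depth ranged from 16510720 to 20313529 reads in 5 libraries and was 38124164 reads in UIRI 3, 2.04 times the median of the other libraries. UIRI 3 also stood apart from the other libraries of its group on the first principal component of all genes (11.1, against -32.5 and -25.5 for UIRI 1 and 2), within the range of the UIRI + BA libraries (3.1 to 30.5). Counts of members are therefore given with and without UIRI 3, and so are the values of the named members that passed the adjusted threshold without it. Values below are normalised read counts, that is, reads divided by a size factor for each library. Of the 51 members, 46 had at least 10 reads in every library.

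More of these transporters were higher than lower in BA-treated cortex at an unadjusted p, and none passed the adjusted threshold. In these bulk samples, a change in the number of cells of a type and a change in RNA per cell cannot be told apart. The log2 fold change (UIRI + BA minus UIRI, on the log2 scale of the value plus 1) was above 0 for 36 of the 51 members (70.6%, against 48.9% of all rows), with a median of 0.28, against -0.01 over all 19176 rows. By limma, 0 of the 51 members and 0% of all rows had an adjusted p below 0.05, the smallest adjusted p of any row being 0.225. At an unadjusted limma p below 0.05, a looser call used below and named as such, 20 members were higher with BA, or 39.2%, where 5.67% of all rows were. In the other direction 2 members were lower, Slc2a3 and Slc2a10, against 4.61% of all rows. Among the 49 transporter genes alone, 18 were higher (36.7%) and 2 lower. The 275 other Slc genes in the table had a median log2 fold change of 0.09, with 20.7% higher and 2.91% lower at the same p.

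The values of the 2 groups did not overlap for 14 members. All BA libraries lay above all UIRI libraries for 12 members (23.5%, against 7.45% of all rows) and below them for 2 (3.92%, against 6.96% of all rows). For the 275 other Slc genes these shares were 19.3% and 2.18%. With 3 libraries per group, the smallest p of an exact two-sided permutation test is 0.1, which these 14 members had. Among the 20 members higher at an unadjusted p below 0.05, 11 did not overlap and 9 did, and in 8 of those 9 only UIRI 3 reached the range of the BA libraries. UIRI 3 was the highest library of its group for 15 of the 20 members.

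Leaving out UIRI 3 moved the calls. UIRI 3 was singled out by its depth and by its place among the BA libraries on the first component. Removing a UIRI library that resembles the BA libraries tends to widen the group difference over all genes. At an unadjusted limma p below 0.05, 13.7% of all rows were higher without it, against 5.67% with it. The adjusted p-values without UIRI 3 are therefore no independent support for a difference. In the limma fit of the remaining 5 libraries, 11 members were higher at an adjusted p below 0.05, where 3.22% of all rows were, and 0 were lower, where 1.79% of all rows were. The 11 included Slc2a2, Slc5a2, Slc5a8, Slc5a11, Slc5a12, Slc13a1, Slc13a2os, Slc13a3, Slc16a12 and Slc26a1. Of the 275 other Slc genes, 38 were higher and 0 lower in this fit at that threshold. DESeq2 on the whole reads of all 6 libraries gave an adjusted p to 44 members, of which 3 were higher (Slc5a11, Slc13a1 and Slc13a3, against 1.14% of the rows with an adjusted p) and 0 were lower (0.349%). None of the other members called without UIRI 3 passed by DESeq2. The edgeR quasi-likelihood test called 0 of 48 members and 0% of the rows it tested, with 16 members higher and 2 lower at an unadjusted p below 0.05. At that unadjusted p, 1703 of the 17155 rows it tested passed in either direction.

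**Figure D1:**
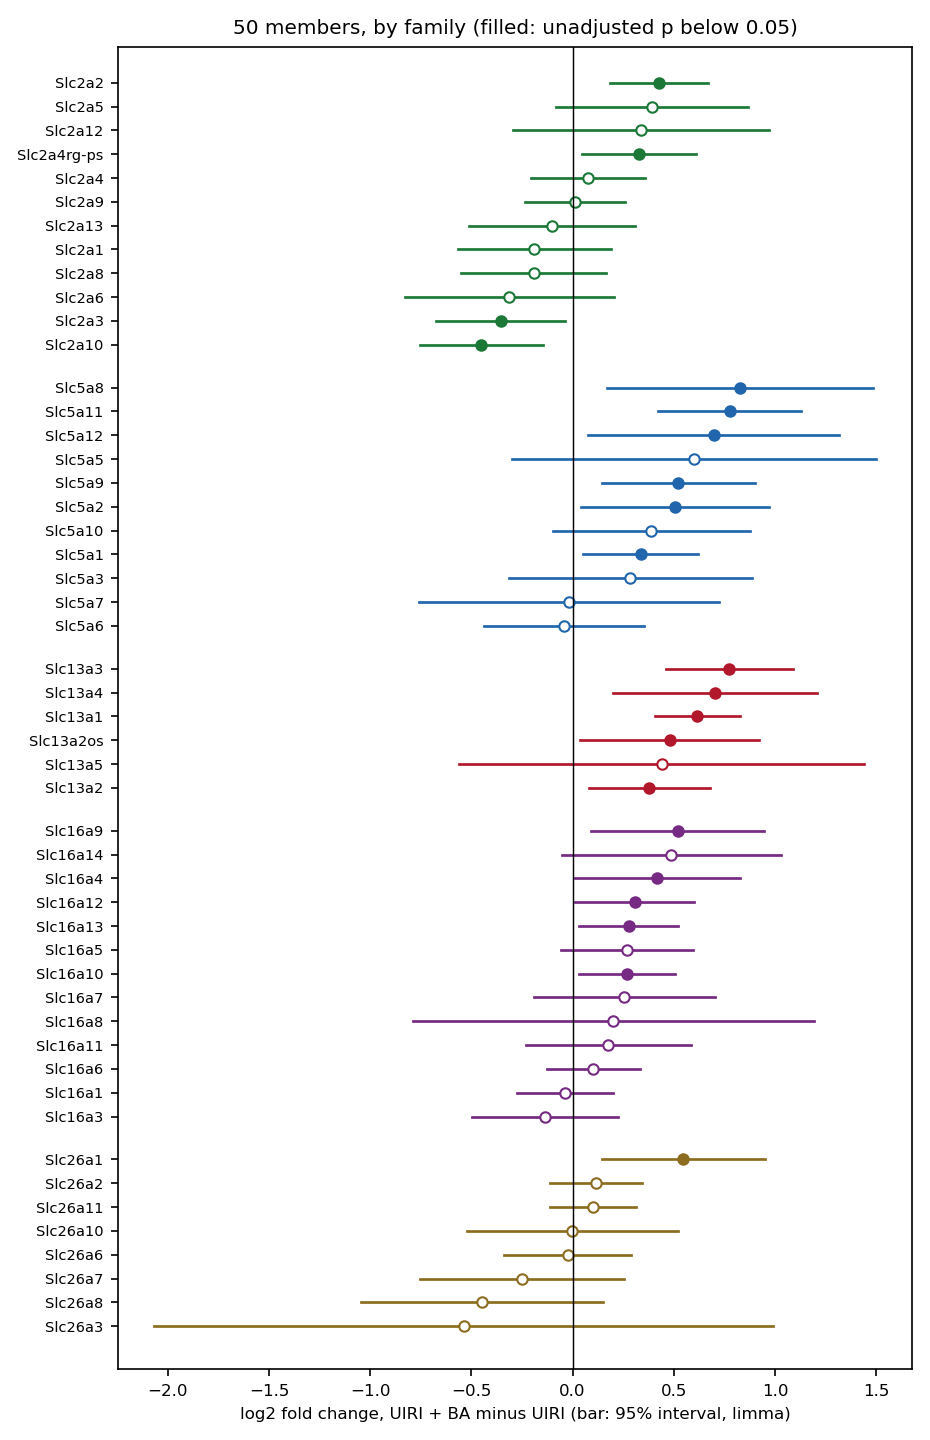
Log2 fold change of UIRI + BA minus UIRI (x axis) for 50 members (y axis, by family), with 95% intervals from limma; filled points have an unadjusted p below 0.05. Filled points lie right of 0 for 19 members and left of 0 for Slc2a3 and Slc2a10.

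By family, Slc13 and Slc5, whose carriers are driven by sodium, had the highest medians. All 6 Slc13 members, the antisense Slc13a2os included, had a log2 fold change above 0 (median 0.55). Of these 6, 5 were higher at an unadjusted p below 0.05, Slc13a2os among them, where 5.67% of all rows were. For the 11 Slc5 members the median was 0.51 and 6 were higher. The 14 Slc16 members had a median of 0.27 with 6 higher, and the 8 Slc26 members a median of -0.01 with 1 higher. The 12 Slc2 members had a median of -0.04, with 2 higher (Slc2a2 and the pseudogene Slc2a4rg-ps) and 2 lower (4.61% of all rows were lower). Together, the members held 0.118% to 0.151% of all normalised reads in the UIRI libraries and 0.155% to 0.178% in the UIRI + BA libraries, ranges that did not overlap.

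To show the sequence before members with values higher or lower with BA, the 250 bases upstream of the RefSeq transcript start (build GRCm38.p6, 5′ to 3′ on the strand of the gene) are given for Slc13a3, Slc5a11 and Slc2a2, which were higher with BA without overlap, and for Slc2a10, which was lower without overlap. Slc13a3 lies at chr2:165473198-165473447 on the minus strand. Slc5a11 lies at chr7:123214616-123214865, Slc2a2 at chr3:28697653-28697902 and Slc2a10 at chr2:165503647-165503896, all on the plus strand. Capitals mark TGACCTTTG, the motif searched.
Slc13a3: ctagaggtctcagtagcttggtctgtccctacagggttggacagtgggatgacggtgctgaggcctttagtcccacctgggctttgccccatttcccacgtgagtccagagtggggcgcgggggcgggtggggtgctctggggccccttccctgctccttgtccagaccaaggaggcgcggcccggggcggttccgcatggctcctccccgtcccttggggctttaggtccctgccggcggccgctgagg
Slc5a11: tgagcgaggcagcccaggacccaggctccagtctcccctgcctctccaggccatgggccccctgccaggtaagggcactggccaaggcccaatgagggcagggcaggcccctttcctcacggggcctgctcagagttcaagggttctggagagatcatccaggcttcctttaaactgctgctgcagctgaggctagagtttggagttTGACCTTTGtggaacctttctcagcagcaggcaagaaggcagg
Slc2a2: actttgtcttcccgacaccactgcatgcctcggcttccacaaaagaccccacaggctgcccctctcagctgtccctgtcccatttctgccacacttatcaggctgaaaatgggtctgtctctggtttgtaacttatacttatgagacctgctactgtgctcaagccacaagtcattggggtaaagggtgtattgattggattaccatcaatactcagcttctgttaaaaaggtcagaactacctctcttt
Slc2a10: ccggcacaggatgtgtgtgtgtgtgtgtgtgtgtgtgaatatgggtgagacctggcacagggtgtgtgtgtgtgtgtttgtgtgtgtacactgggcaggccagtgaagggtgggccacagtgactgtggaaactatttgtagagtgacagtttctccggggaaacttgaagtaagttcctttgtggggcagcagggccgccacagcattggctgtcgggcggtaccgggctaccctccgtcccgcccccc
The G+C content of these stretches was 67.6% for Slc13a3, 60.8% for Slc5a11, 47.2% for Slc2a2 and 58% for Slc2a10. This motif was searched on both strands in the RefSeq promoter windows, which were found for 36 members (40 windows) of the 51. TGACCTTTG, part of the element bound by PPAR and related nuclear receptors, was in 2 of the 40 windows (5%; Slc5a11 and Slc26a3), and in 0.426% of all 32851 windows. In Slc5a11 it began at position -43 from the transcript start. A match of letters is a description and shows no binding.

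The sulfate carrier of the urine side of the proximal tubule, Slc13a1 (NaS1), ranked highest of the members by its p, with the rank of 4 among all rows. Its normalised read count was 4206.5, 5094 and 4778 in UIRI 1 to 3 and 7077, 6762 and 7722 in UIRI + BA 1 to 3. The lowest BA library lay well above the highest UIRI library. It differed by 0.62 on the log2 scale (SE 0.09, 95% interval 0.41 to 0.83, limma adjusted p = 0.225), or 1.53-fold, and the DESeq2 adjusted p was 2.25e-05. Without UIRI 3 the value was 0.63 (limma adjusted p = 0.0137). Slc13a1 alone made up 15.2% to 19.3% of the summed normalised reads of all members in the UIRI libraries and 19.3% to 21.2% in the UIRI + BA libraries.

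Slc13a4 (NaS2), a sulfate carrier best known from placenta, was much scarcer. Its normalised read counts were 23.8, 27.0 and 23.0 in the UIRI libraries and 40.1, 48.5 and 34.4 in the UIRI + BA libraries, from 21 to 45 reads. The groups did not overlap, and the log2 fold change was 0.70 (SE 0.22, adjusted p = 0.374).

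Sulfate leaves the tubule cell on the blood side through Slc26a1 (SAT1), which exchanges it for bicarbonate or oxalate. Its normalised read count was 228, 292 and 376 in the UIRI libraries and 379.6, 423 and 488 in the UIRI + BA libraries. The groups were separated only narrowly, UIRI 3 lying just under UIRI + BA 1. On the log2 scale the difference was 0.55 (SE 0.18, adjusted p = 0.385), and 0.73 with an adjusted p of 0.0299 without UIRI 3. For Slc26a1, leaving out any 1 library gave 0.37 to 0.73. Its exons share 3.48% of their bases with Idua on the opposite strand.

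The dicarboxylate carriers, which take up citrate, succinate and alpha-ketoglutarate, were higher as well. Slc13a3 (NaDC3, on the blood side) had 452, 479 and 656 normalised reads in the UIRI libraries and 859, 853 and 971 in the UIRI + BA libraries. Each BA library was above each UIRI library. This was a log2 fold change of 0.77 (SE 0.14, limma adjusted p = 0.225), or 1.71-fold, with a DESeq2 adjusted p of 0.000972, and 0.94 without UIRI 3 (limma adjusted p = 0.00369).

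Slc13a2 (NaDC1, on the urine side) reclaims filtered citrate. It had 282, 317 and 367 normalised reads in the UIRI libraries and 373, 407 and 478 in the UIRI + BA libraries, without overlap, but with a gap between UIRI 3 and UIRI + BA 1 far smaller than for Slc13a3. BA minus UIRI came to 0.38 on the log2 scale (SE 0.13, adjusted p = 0.418). Its antisense transcript Slc13a2os had 184, 145 and 256 normalised reads against 252, 244 and 302, overlapping through UIRI 3, and a log2 fold change of 0.48 (SE 0.20, adjusted p = 0.466), or 0.69 without UIRI 3 (adjusted p = 0.0368). For Slc13a2os, leaving out any 1 library gave 0.29 to 0.69. The 2 genes share 632 exonic bases, 26.2% of those of Slc13a2. The libraries kept strand, but the strand setting used in counting is not given in the sources used here, so reads of the 2 may be mixed. The third dicarboxylate carrier, Slc13a5, a citrate carrier of liver, had 6 to 15 reads per library and was too scarce to compare.

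Within a library, the log2 ratio of Slc13a3 to Slc13a2 was 0.68, 0.59 and 0.83 in the UIRI libraries and 1.20, 1.07 and 1.02 in the UIRI + BA libraries. Relative to the urine-side carrier, the blood-side carrier was higher with BA by 0.39, without overlap (exact two-sided permutation p = 0.1, the smallest possible, and 0.25 after adjustment over 5 ratios). A ratio within a library does not depend on how libraries were scaled to each other.

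**Figure D2:**
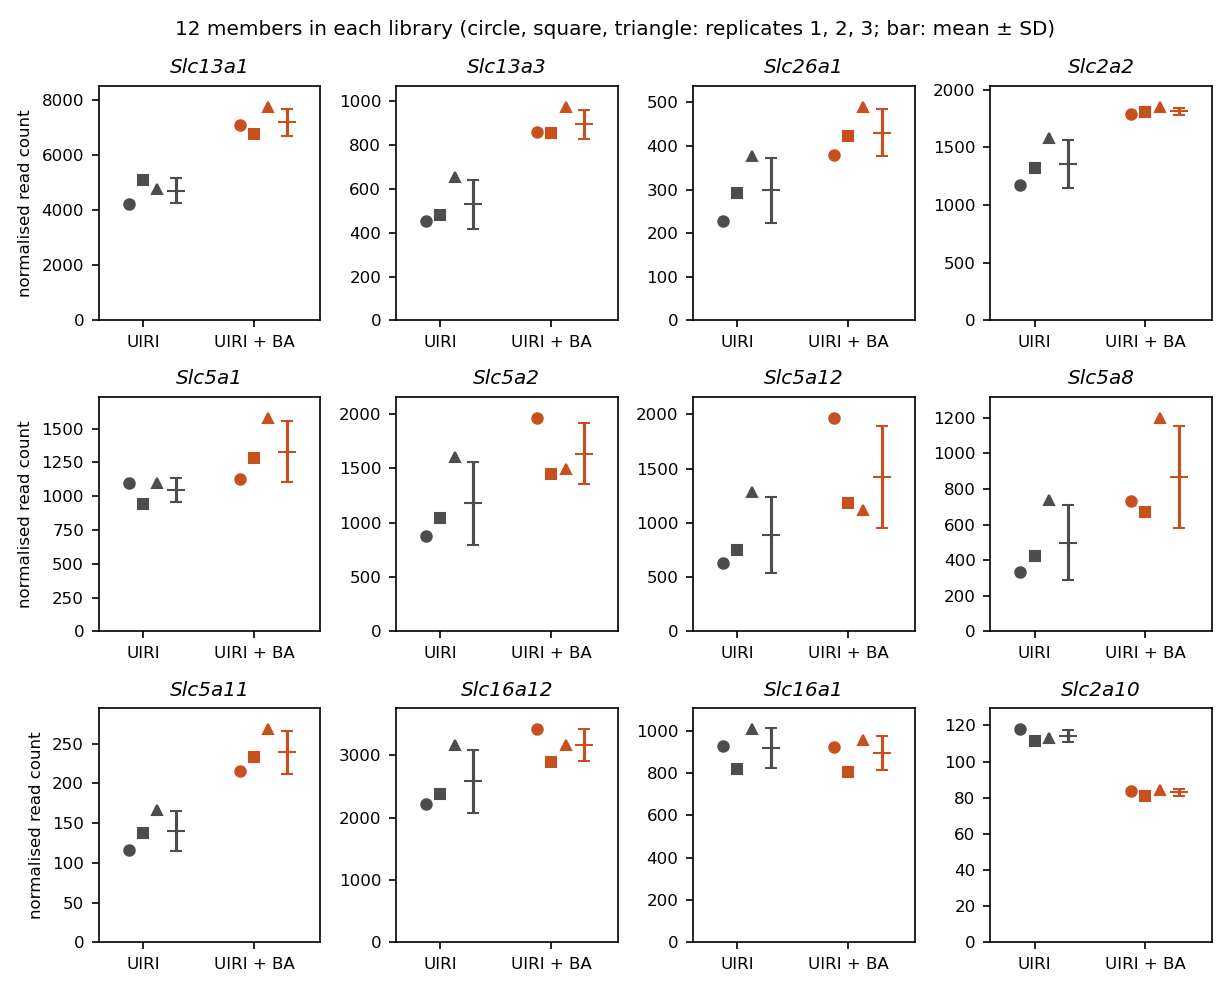
Normalised read count (y axes, from 0) of 12 members in each library of the UIRI and UIRI + BA groups (x axes), with the mean ± SD of each group beside the points (n = 3). Slc13a1, Slc13a3 and Slc5a11 are separated between groups, Slc5a2, Slc5a12, Slc5a8 and Slc16a12 overlap through UIRI 3, Slc16a1 is level, and Slc2a10 is lower with BA.

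Among the sodium-glucose cotransporters, Slc5a2 (SGLT2), which reclaims most filtered glucose in the early proximal tubule, had 878, 1044 and 1606 normalised reads in the UIRI libraries and 1957, 1444 and 1494 in the UIRI + BA libraries. UIRI 3 exceeded 2 of the BA libraries, while UIRI 1 and 2 lay below all of them. The log2 fold change was 0.51 (SE 0.21, adjusted p = 0.465) and 0.76 without UIRI 3 (adjusted p = 0.0206). Its exons share 20.6% of their bases with BC017158 on the opposite strand, a gene with a mean of 638 normalised reads.

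Slc5a1 (SGLT1), the high-affinity carrier that takes up remaining glucose further along the tubule, had 1097, 940.3 and 1101 normalised reads in the UIRI libraries and 1130.0, 1286 and 1577 in the UIRI + BA libraries. The groups did not overlap, though UIRI + BA 1 was only slightly above UIRI 1 and 3. It differed by 0.34 on the log2 scale (SE 0.13, adjusted p = 0.441). The log2 ratio of Slc5a2 to Slc5a1 ranged from -0.32 to 0.54 in the UIRI libraries and from -0.08 to 0.79 in the UIRI + BA libraries, so the balance of the 2 cotransporters was not separable between groups (difference 0.17, exact permutation p = 0.6).

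Slc5a9 (SGLT4) and Slc5a10 (SGLT5) are carriers of mannose, fructose and related sugars. Slc5a9 had 169, 223 and 250.3 normalised reads in the UIRI libraries and 304, 263 and 351 in the UIRI + BA libraries, with no overlap and a log2 fold change of 0.52 (SE 0.17, adjusted p = 0.377). Slc5a10 had 318, 396 and 250.3 against 304, 452 and 515, with overlapping groups, and its log2 fold change of 0.39 (SE 0.22) did not pass an unadjusted p of 0.05 (adjusted p = 0.555 by limma). Its exons share 16.6% of their bases with Fam83g.

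The facilitative sugar carriers lay on both sides of 0, the 9 of them having a median log2 fold change of -0.19. Slc2a2 (GLUT2), the low-affinity carrier through which glucose leaves early proximal tubule cells, had 1170.3, 1320.5 and 1582 normalised reads in the UIRI libraries and 1786, 1807 and 1847 in the UIRI + BA libraries. The 3 BA libraries were close together and above every UIRI library. On the log2 scale the difference was 0.43 (SE 0.11, adjusted p = 0.284), and 0.54 without UIRI 3 (adjusted p = 0.0111).

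Slc2a1 (GLUT1), the carrier of basal glucose uptake in most cells, had 738, 725 and 1125 normalised reads in the UIRI libraries and 665, 835 and 731 in the UIRI + BA libraries. Its groups overlapped, with UIRI 3 alone above all others. This was a log2 fold change of -0.19 (SE 0.17, adjusted p = 0.695), and its sign turned to 0.02 without UIRI 3. The log2 ratio of Slc2a2 to Slc2a1 was 0.67, 0.86 and 0.49 in the UIRI libraries and 1.42, 1.11 and 1.34 in the UIRI + BA libraries, higher by 0.62 without overlap (exact permutation p = 0.1, adjusted over 5 ratios 0.25).

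The 2 members that were lower belong to this group. Slc2a10 (GLUT10), mutated in arterial tortuosity syndrome, had 118, 111 and 113 normalised reads in the UIRI libraries and 83.9, 80.8 and 84.5 in the UIRI + BA libraries. The groups did not overlap and were narrow, at 67 to 206 reads per library. With so few libraries and reads, this narrow spread is a weak measure of precision. The DESeq2 adjusted p was 0.419. BA minus UIRI came to -0.45 on the log2 scale (SE 0.13, adjusted p = 0.351), and leaving out any 1 library kept it between -0.47 and -0.43.

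Slc2a3 (GLUT3), a high-affinity carrier of neurons and leukocytes, had 214, 217 and 179 normalised reads in the UIRI libraries and 160.3, 178 and 139 in the UIRI + BA libraries. The groups touched but did not overlap, UIRI 3 lying within 1 normalised read of UIRI + BA 2. The log2 fold change was -0.35 (SE 0.14, adjusted p = 0.458). The other facilitative sugar carriers, Slc2a4, Slc2a5, Slc2a6, Slc2a8 and Slc2a12, overlapped between groups, with log2 fold changes from -0.31 (Slc2a6) to 0.39 (Slc2a5, the fructose carrier GLUT5). Slc2a9, a urate carrier, was level at 0.01 (95% interval -0.24 to 0.26). The pseudogene Slc2a4rg-ps had 343, 416 and 323 normalised reads against 501, 445 and 410.1, overlapping, with a log2 fold change of 0.33 (SE 0.12, adjusted p = 0.448).

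**Figure D3:**
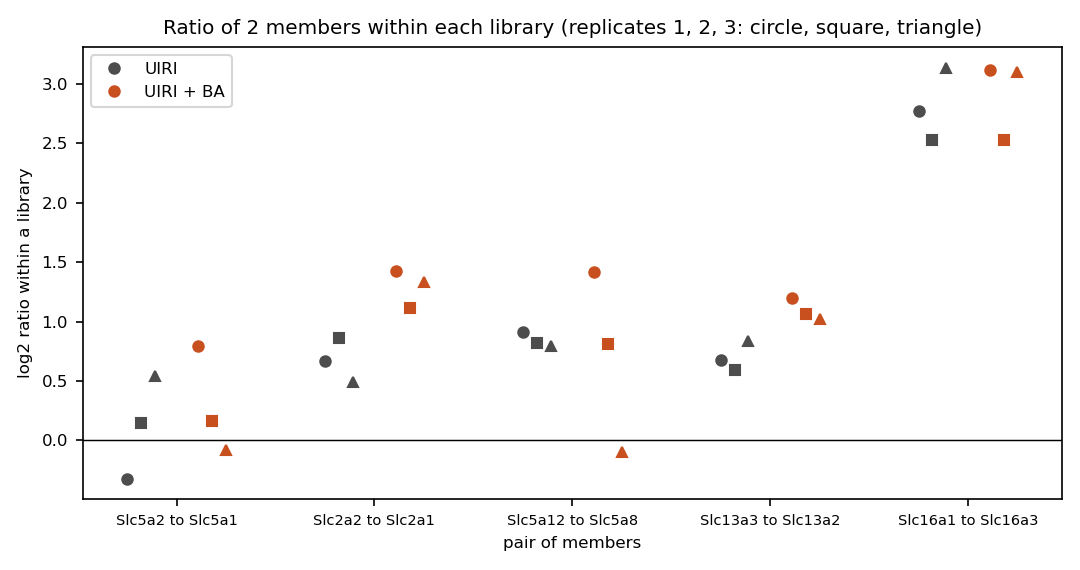
Log2 ratio of the normalised read counts of 2 members within each library (y axis) for 5 pairs (x axis), UIRI in gray and UIRI + BA in orange. The ratios of Slc2a2 to Slc2a1 and of Slc13a3 to Slc13a2 do not overlap between groups, and the other 3 do.

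Inositol, an osmolyte of tubule cells, is taken up by Slc5a3 (SMIT1) and Slc5a11 (SMIT2). Slc5a11 had 117, 137 and 166 normalised reads in the UIRI libraries and 215, 234 and 268 in the UIRI + BA libraries. All BA libraries were above all UIRI libraries. It differed by 0.78 on the log2 scale (SE 0.16, limma adjusted p = 0.225), or 1.71-fold, with a DESeq2 adjusted p of 0.0104, and 0.91 without UIRI 3 (limma adjusted p = 0.0172).

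Slc5a3, by contrast, spread widely within each group. It had 1933, 1539.8 and 3226 normalised reads in the UIRI libraries and 3405, 1960.0 and 2607 in the UIRI + BA libraries, overlapping only through UIRI 3. Its log2 fold change was 0.29 (SE 0.27, adjusted p = 0.708), and 0.59 without UIRI 3 (adjusted p = 0.106). Slc2a13, which carries inositol with protons, had a log2 fold change of -0.10 (SE 0.18). Miox, which begins the breakdown of inositol in the proximal tubule, had 1005, 1021 and 1991 normalised reads in the UIRI libraries and 2212, 2136 and 2870 in the UIRI + BA libraries. Its groups did not overlap, with a log2 fold change of 0.91 (SE 0.24, limma adjusted p = 0.298), or 1.23 without UIRI 3 (limma adjusted p = 0.00369). The DESeq2 adjusted p of Miox was 0.342.

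Lactate in the urine is reclaimed by the sodium-coupled carriers Slc5a8 (SMCT1) and Slc5a12 (SMCT2). Slc5a8 had 335, 424 and 737 normalised reads in the UIRI libraries and 733, 671 and 1197 in the UIRI + BA libraries. UIRI 3 lay level with UIRI + BA 1, and UIRI 1 and 2 were below all BA libraries. On the log2 scale the difference was 0.83 (SE 0.29, adjusted p = 0.420), the largest of the 51 members, and 1.15 without UIRI 3 (adjusted p = 0.0254).

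Slc5a12 had 632, 749 and 1283 normalised reads in the UIRI libraries and 1963, 1181 and 1116.5 in the UIRI + BA libraries, again overlapping only through UIRI 3. This was a log2 fold change of 0.70 (SE 0.28, adjusted p = 0.454), and 1.00 without UIRI 3 (adjusted p = 0.034). The 2 carriers did not follow each other among BA libraries: Slc5a12 was highest in UIRI + BA 1 and Slc5a8 in UIRI + BA 3. Their log2 ratio was 0.80 to 0.91 in the UIRI libraries and ran from -0.10 to 1.42 in the UIRI + BA libraries (difference -0.13, exact permutation p = 0.8).

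Of the proton-coupled lactate carriers, none was past an unadjusted p of 0.05. Slc16a1 (MCT1), found in most cells, had 930.1, 818 and 1007 normalised reads in the UIRI libraries and 922, 804 and 958 in the UIRI + BA libraries, nearly the same ranges. Its log2 fold change was -0.04 (95% interval -0.27 to 0.20, adjusted p = 0.913). Slc16a3 (MCT4), the lactate exporter of glycolytic cells, had 135, 141 and 113 against 105, 139 and 111, with a log2 fold change of -0.14 (95% interval -0.50 to 0.22). Slc16a7 (MCT2) had 772, 713 and 1106 against 1332, 909 and 856, overlapping only through UIRI 3, with a log2 fold change of 0.26 (SE 0.20) and of 0.45 without UIRI 3 (limma adjusted p = 0.138). It is given by library after its values were seen. Slc16a8 (MCT3), known from retinal pigment epithelium, had 5 to 21 reads per library. No test compared these carriers with the sodium-coupled ones. The ratio of Slc16a1 to Slc16a3 differed by 0.10 on the log2 scale (exact permutation p = 1).

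The other 10 Slc16 members, carriers of diverse or unsettled substrates, all had log2 fold changes above 0, from 0.10 to 0.52, and 6 were higher at an unadjusted p below 0.05. Slc16a12, a creatine carrier, had 2214, 2374 and 3160.4 normalised reads in the UIRI libraries and 3420.0, 2900.2 and 3171 in the UIRI + BA libraries, UIRI 3 reaching the BA range. The log2 fold change was 0.31 (SE 0.13, adjusted p = 0.480), and 0.46 without UIRI 3 (adjusted p = 0.0227). With any 1 library left out, Slc16a12 ran from 0.20 to 0.46. Slc16a10, which carries aromatic amino acids, had 639, 624 and 759 against 878, 738 and 818, with a log2 fold change of 0.27 (SE 0.11). Its groups overlapped through UIRI 3 as well.

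Slc16a9, linked to carnitine and urate levels in genetic studies, had 143, 178 and 225 normalised reads in the UIRI libraries and 277, 209 and 292 in the UIRI + BA libraries (log2 fold change 0.52, SE 0.19). Slc16a4 had 245, 237 and 332 against 428, 282 and 382 (log2 fold change 0.42, SE 0.18). Both overlapped only through UIRI 3. Slc16a13 did not overlap, with 414, 471 and 371 against 486, 499 and 531 (log2 fold change 0.28, SE 0.11). The remaining Slc16 members, Slc16a5, Slc16a6, Slc16a11 and Slc16a14, had log2 fold changes from 0.10 to 0.49 that did not pass an unadjusted p of 0.05.

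Apart from Slc26a1, none of the Slc26 anion exchangers passed an unadjusted p of 0.05. Slc26a6, the oxalate and chloride exchanger of the urine side, had 231, 246 and 181 normalised reads in the UIRI libraries and 203, 228 and 211 in the UIRI + BA libraries, with a log2 fold change of -0.02 (95% interval -0.34 to 0.29). Slc26a7, a chloride exchanger of intercalated cells, had 62.3, 50.6 and 82.7 against 58.9, 58.2 and 44.9, overlapping, with a log2 fold change of -0.25 (SE 0.22). Slc26a11, a sodium-independent sulfate carrier, had 449, 389 and 447 against 453, 454 and 466, which did not overlap yet differed by only 0.10 (SE 0.09, limma adjusted p = 0.709). Slc26a2, a sulfate carrier needed in cartilage, had a log2 fold change of 0.12 (SE 0.10), and Slc26a3, Slc26a8 and Slc26a10 were scarce, with 1 to 84 reads per library. Their log2 fold changes were -0.54 (SE 0.68), -0.45 (SE 0.26) and close to 0 (SE 0.23), and all overlapped between groups.

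The Slc5 carriers of other solutes were level or scarce. Slc5a6, the carrier of biotin and pantothenate, had a log2 fold change of -0.04 (SE 0.17), and Slc5a5 (iodide) and Slc5a7 (choline) had 3 to 28 reads per library. In all, 21 members outside the rule for values by library had log2 fold changes from -0.54 (Slc26a3) to 0.60 (Slc5a5), and none passed an unadjusted limma p of 0.05.

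**Figure D4:**
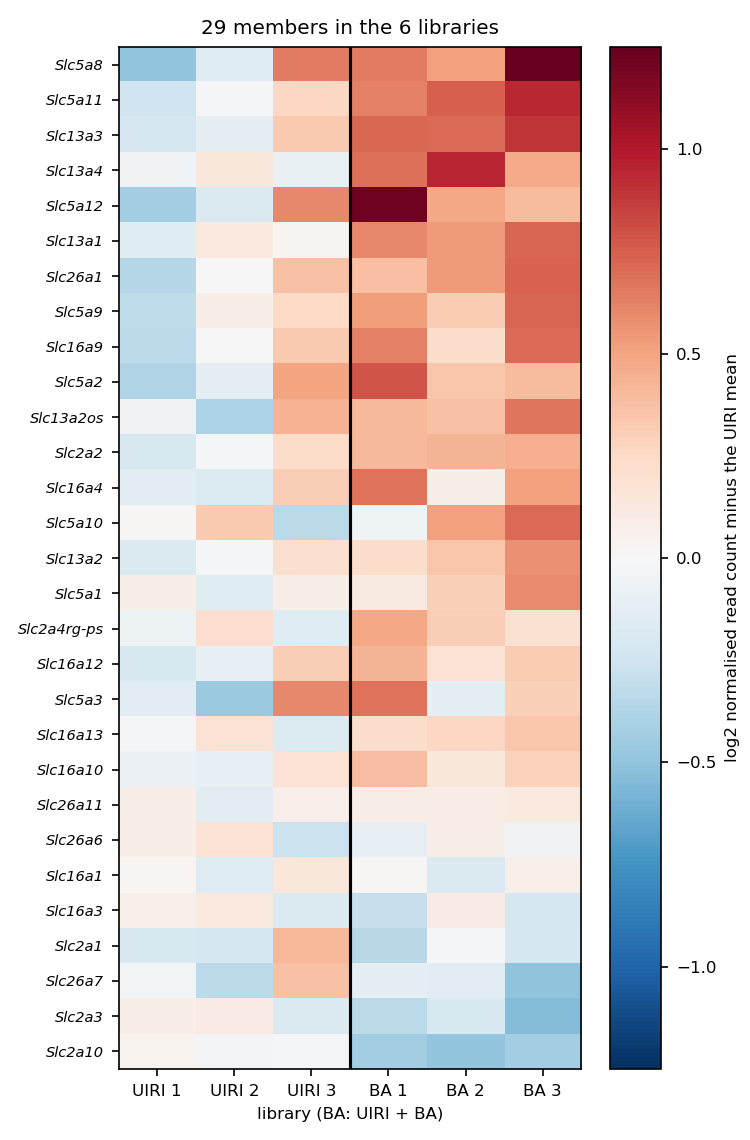
Log2 normalised read count minus the UIRI mean (color) for 29 members (rows, ordered by log2 fold change) in the 6 libraries (columns). The BA libraries are red for most rows, UIRI 3 is redder than UIRI 1 and 2 in many of them, and Slc2a10 and Slc2a3 at the foot are blue with BA.

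Levels between genes were compared per kilobase of annotated exon. In the UIRI group high levels were those of Slc16a12 at 619 ± 121 normalised reads per kb (SD, n = 3), Slc13a1 at 607 ± 58.2 and Slc5a2 at 406 ± 132. Slc16a12 and Slc13a1 did not differ beyond their spread. In the UIRI + BA group Slc13a1 came first at 929.97 ± 63.3, ahead of Slc16a12 at 759 ± 62.3 and Slc5a2 at 563 ± 97.5. Slc5a12 had rank 8 in the UIRI group and rank 5 with BA, at 219 ± 85.4 and 349.8 ± 116.0, a difference within its spread. At the low end, Slc26a3 stood at 0.911 ± 0.492 in the UIRI group. Exon length here is the union over annotated transcripts, so genes with long unused exons are understated.

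**Figure D5:**
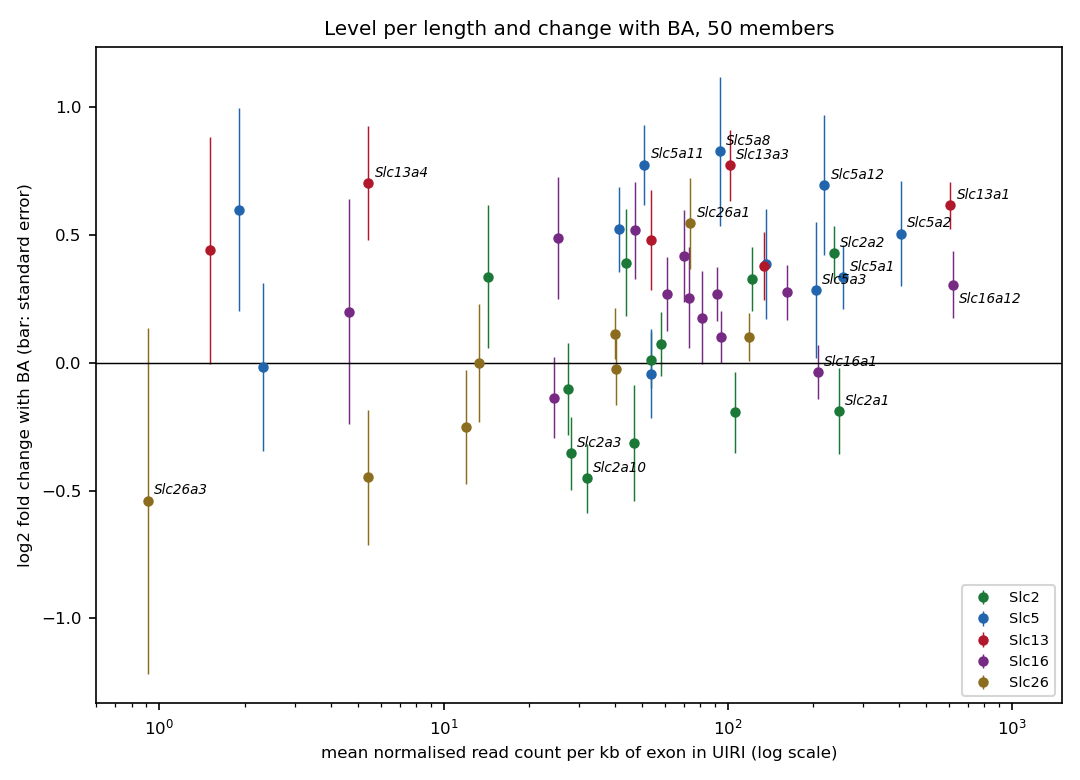
Mean normalised read count per kb of exon in the UIRI group (x axis, log scale) against log2 fold change with BA (y axis; bars are standard errors) for 50 members, colored by family. The highest 3, Slc16a12, Slc13a1 and Slc5a2, lie above 0. Scarce members lie on both sides, with Slc13a4 above 0 and Slc26a3 below it. Slc2a1 and Slc16a1 lie near or under 0 at similar levels to Slc5a1 and Slc5a3.

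Genes that work with these carriers were taken from a fixed list of 23, of which 13 were higher and 1 lower at an unadjusted limma p below 0.05, with a median log2 fold change of 0.26, against 5.67% and 4.61% of all rows. By limma on all 6 libraries 0 passed the adjusted threshold, while 8 were higher and 0 lower without UIRI 3, and 5 higher and 0 lower by DESeq2. Of all rows, 3.22% were higher and 1.79% lower without UIRI 3. By DESeq2 it was 1.14% and 0.349% of the rows with an adjusted p. The nuclear receptor Hnf4a, which drives transporter genes in the proximal tubule, had 3052, 3653 and 3797 normalised reads against 5096, 4819 and 5429, without overlap (log2 fold change 0.55, SE 0.10). Its adjusted p was 0.0125 without UIRI 3 by limma and 0.00094 by DESeq2.

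The scaffold Pdzk1, which holds transporters at the urine-side membrane, had 1047, 1247 and 1706.5 normalised reads in the UIRI libraries and 2424, 1708 and 2619 in the UIRI + BA libraries, UIRI 3 nearly equal to UIRI + BA 2 (log2 fold change 0.76, SE 0.20, DESeq2 adjusted p = 0.0117). Its relative Slc9a3r1 and Pdzk1ip1, a partner needed by Slc5a2, were also higher without overlap, by 0.26 (SE 0.07) and 0.23 (SE 0.07). Of the genes that handle sugars, Khk and Sord of fructose and sorbitol metabolism were higher without overlap, with log2 fold changes of 0.32 and 0.66 (DESeq2 adjusted p = 0.0285 for Sord), and G6pc, the last step of glucose release, was higher with overlap (0.86, SE 0.33). The hexokinases Hk1 (0.02) and Hk2 (-0.32) and the aldose reductase Akr1b3 (-0.14) did not pass an unadjusted p of 0.05.

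Bsg and Emb, the chaperones that bring Slc16a1 and its relatives to the membrane, had log2 fold changes of -0.10 (SE 0.10) and -0.12 (SE 0.09). The lactate dehydrogenases Ldhb (0.27, SE 0.11) and Ldhd (0.35, SE 0.14) were higher, and Ldha (0.07, SE 0.08) was not past the threshold. For sulfate, the 2 enzymes that make its activated form lay on opposite sides of 0: Papss2 was higher at 0.33 (SE 0.09, no overlap) and Papss1 lower at -0.20 (SE 0.08, overlapping). The Golgi carriers of activated sulfate, Slc35b2 (-0.10) and Slc35b3 (-0.01), did not pass.

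The labels name renal cortex, and its proximal tubule markers lay above 0, like most members. Most markers of other tubule segments lay above 0 too. These were 4 of 5 for the thick limb, 2 of 2 for the distal convoluted tubule, 5 of 5 for collecting duct principal cells and 3 of 5 for intercalated cells. All markers of leukocytes (7), fibroblasts (5), urothelium (5) and red blood cells (3) lay below 0, as did 3 of 4 of endothelium. All 11 proximal tubule markers had log2 fold changes above 0 and 10 were higher at an unadjusted p below 0.05 (5.67% of all rows). At an adjusted p below 0.05, 10 of these markers were higher without UIRI 3 (3.22% of all rows). By DESeq2 it was 6 of these markers (1.14% of the rows with an adjusted p). Their summed level was 37863 to 57856 normalised reads in the UIRI libraries and 62599 to 79605 in the UIRI + BA libraries. Their median log2 fold change of 0.70 was above the 0.28 of the members. Of the 5 markers of the last proximal segment, 1 was higher. Of the 5 injured tubule markers, Havcr1, Vcam1 and Krt20 were higher and Lcn2 lower. Havcr1 had 14125, 16614 and 16012 normalised reads against 18944, 22559 and 21074 (DESeq2 adjusted p = 0.0127). Lcn2 had a log2 fold change of -0.51 (DESeq2 adjusted p = 0.000765). By RT-qPCR of kidney tissue, the study reported that BA lowered both KIM-1 (Havcr1) and NGAL (Lcn2) after UIRI. The direction for Havcr1 is opposite here, and the reason was not tested. The part of tubule cell content in the result was not tested.

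Among other cell types, 3 of 5 fibroblast markers were lower (summed level 64502 to 79105 against 45908 to 62840), and 0 of 7 leukocyte markers passed (119830 to 178930 against 117530 to 149490). For the thick limb 1 of 5 was higher (25494 to 41274 against 31094 to 44634), and of 5 intercalated cell markers 1 was lower (3599.7 to 3694 against 3045 to 4101). Markers of the distal convoluted tubule (2), collecting duct principal cells (5), endothelium (4), red blood cells (3) and adrenal cortex (1) gave none past the threshold. The 5 urothelial markers, which should be near 0 in cortex, summed to 119 to 520.3 in the UIRI libraries, UIRI 3 being the highest, and 17.5 to 319 in the UIRI + BA libraries, where Upk3a was at 0 in 1 library. Their part in the result was not tested either.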

How the data were processed

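RNA of renal cortex was measured in 6 libraries, 3 per group, grouped by their labels; every library was used, and 0 columns of library values stayed unmapped. According to the methods, the authors used HISAT2 for alignment, FeatureCounts for counting and DESeq2 for testing; the methods name FPKM, but the values are not FPKM. The genome build and annotation are not given in the sources used here. The values that the authors deposited are a signal: the read count of a gene over the size factor of its library. Multiplied back, 100% of them came within 0.1 of a whole read. The deposited table also holds the authors' fold changes, p-values and adjusted p-values, and further tables hold enriched terms; none of these were used.

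The main test was limma 3.58.1 (R 4.3.3) on the log2 scale after adding a pseudocount of 1, with a variance trend over intensity, on all 19176 rows and with no covariate, and Benjamini-Hochberg adjustment over all rows. Alternatives on the whole reads were edgeR 4.0.16 and DESeq2 1.42.0, and 5 ratios within a library were compared by exact permutation. Other alternatives were quantile and upper quartile scaling, a pseudocount of 0.1, a minimum value of 1 in all libraries, the replicate block, and leaving out each library. Positions and exon lengths came from GENCODE release M21 and promoters from RefSeq; symbols were matched by name. The scripts were tested on simulated data with log2 changes of 1.5, larger than that of any member (at most 0.83). That test does not show the power to find changes as small as those of the members.

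The members and gene lists were chosen with earlier results of these data known. Values per library are given for members with an unadjusted p below 0.05, for members without overlap and with a mean of at least 10, and for members with a textbook role in the kidney. Counts cover all members and list genes, but 1 member and some list genes are not reported here by name and are not drawn. At 3 libraries per group, precision is limited by the spread between libraries; scarce members (under 10 reads in a library) are limited by counting error as well. The marker lists of adipocytes and skeletal muscle were also fixed, and none of their genes was found in the table.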

Additional observations from a re-analysis of the deposited data

How the results depend on the processing

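Of the members, 0 had an adjusted p below 0.05 under quantile scaling, upper quartile scaling, the low-value filter, a pseudocount of 0.1, the replicate block and edgeR, and 3 had one under DESeq2. Leaving out 1 library gave 0 to 11, and the 11 came without UIRI 3, with 0 in each of the other 5 cases. The count of members higher at an unadjusted p below 0.05 was 16 to 20 under the scalings, filters and tools (16 with edgeR, 18 with DESeq2, 20 with the replicate block) and 9 to 23 when 1 library was left out, 9 without UIRI 1, 10 without UIRI + BA 3 and 13 without UIRI 2 or without UIRI + BA 1. The share of all rows higher at that p moved too, from 2.61% without UIRI 1 to 13.7% without UIRI 3, so the 9 members (17.6%) and the 23 members (45.1%) stand against unequal backgrounds. Under the scalings, filters and tools, 1511 (DESeq2) to 2106 (replicate block) rows passed that p in either direction. The count of members lower was 1 under DESeq2, 2 under edgeR and the replicate block, and 1 to 4 when 1 library was left out. Members without overlap numbered 12 to 26 above and 2 to 5 below when 1 library was left out, the highest again without UIRI 3. Leaving out a library can only keep or raise these counts, and over all rows the share was 9% to 23% above and 9.19% to 22.4% below, the highest also without UIRI 3. The median log2 fold change of the members stayed between 0.210 and 0.336.

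Small differences turned sign with the libraries used, and the cause was not tested. The log2 fold change of Slc2a1 ran from -0.298 to 0.018, that of Slc16a1 from -0.117 to 0.039 and that of Slc26a6 from -0.158 to 0.064. The difference of the log2 ratio ran from -0.080 to 0.379 for Slc5a2 to Slc5a1, from -0.486 to 0.274 for Slc5a12 to Slc5a8 and from -0.042 to 0.295 for Slc16a1 to Slc16a3. Over the named members, 326 of the other values kept direction and side of the threshold, 55 fell short of it, 3 passed it and 6 turned sign.

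Same-numbered libraries of the 2 groups had correlations of -0.24, 0.304 and 0.155 of their deviations from the group means. Differently numbered libraries ran from -0.413 to 0.235. With 3 libraries per group, these values cannot tell whether the numbers pair the libraries. The replicate block raised the calls over all rows from 1971 to 2106 at an unadjusted p below 0.05 and left the members' counts at 20 and 2. Non-overlap counts have no value under the block, DESeq2 or edgeR, which do not change the values compared.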
